A study of Mus musculus with 12 samples.

Results

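The T cell receptor signals through invariant chains that it does not itself encode by rearrangement. CD3 gamma, delta and epsilon (genes Cd3g, Cd3d and Cd3e) and the zeta chain (Cd247) carry the tyrosine motifs, the Src family kinases Lck and Fyn phosphorylate them, and the kinase Zap70 docks on them and phosphorylates the scaffold Lat and the adaptor SLP-76 (Lcp2). Group 2 innate lymphoid cells (ILC2s), which make type 2 cytokines without an antigen receptor, are known to transcribe several of these genes. The transcripts of these 9 genes, taken as a named list, were followed in 12 RNA-seq libraries of ILC2s, among 29542 genes with a matched transcript and 14431 tested.

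The cells came from mixed marrow chimeras of C57BL6 background. CD45.1 congenic recipients, irradiated with 950 cGy, were given equal parts of CD45.2 Rag1-/- marrow and CD90.1 WT marrow, and ILC2s were sorted from skin-draining lymph nodes at 8 or 20 weeks. All mice had received rmIL-33 on each of 7 days, 30 ng into each cheek and 240 ng into the peritoneum. Each of the 4 groups (WT-labelled and knockout-labelled at each time) had 3 libraries. Rag1 encodes part of the recombinase that assembles antigen receptors, so Rag1-/- marrow gives no T cells, whereas WT marrow and surviving recipient cells can. CD90 is encoded by Thy1 on chromosome 9, so the marker that tells the donors apart lies on the chromosome that carries the 3 CD3 genes.

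Library totals were 11433625 to 32529806 estimated reads. In a principal component analysis, WT-labelled replicate 2 and knockout-labelled replicate 3 of 8 weeks stood apart. The targeted gene went against its label: Rag1 had 0 reads in the 6 WT-labelled libraries, 0, 14.5 and 12.2 in knockout-labelled libraries of 8 weeks and 13.2, 18.4 and 10.8 at 20 weeks. Which part of Rag1 the allele lacks is not stated, so this checks neither genotype, and every direction below is between libraries as labelled. The labels also do not say that replicates came from separate animals, so p-values may measure technical spread. All 3 knockout-labelled libraries of 20 weeks, and 1 library of each other group, were quantified with 24 threads and the remaining 6 with 8, which may mark separate runs.

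On GRCm38, the 3 CD3 genes lie within 40.1 kb of chromosome 9. Cd3g (ENSMUSG00000002033, chr9:44969572-44980431, minus strand) and Cd3d (ENSMUSG00000032094, chr9:44981786-44987339, plus strand) start from opposite strands with 1354 bases between them. Cd3e (ENSMUSG00000032093, chr9:44998740-45009627, minus strand) follows 11400 bases after Cd3d. The end of Thy1 is 921 kb from the cluster. The other 6 genes lie on other chromosomes: Cd247 (chr1:165788681-165877277), Zap70 (chr1:36761798-36782818), Lck (chr4:129548344-129573641), Lat (chr7:126363824-126369570), Fyn (chr10:39368855-39565381) and Lcp2 (chr11:34046920-34092295).

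The 250 bases before the RefSeq start site of each CD3 gene (GRCm38.p6) are shown because these neighbours differed widely in level. They read 5′ to 3′ on the gene's own strand, and capitals mark GGAA, the ETS family core, on either strand (TTCC is its reverse). The windows are chr9:44981536-44981785 (plus strand) for Cd3d, chr9:45009612-45009861 (minus strand) for Cd3e and chr9:44980432-44980681 (minus strand) for Cd3g.
Cd3d: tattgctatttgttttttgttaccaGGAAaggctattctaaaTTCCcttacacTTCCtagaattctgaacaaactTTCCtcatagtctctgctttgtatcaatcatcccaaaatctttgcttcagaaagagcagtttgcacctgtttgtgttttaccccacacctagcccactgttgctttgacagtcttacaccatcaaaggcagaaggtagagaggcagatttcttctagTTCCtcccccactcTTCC
Cd3e: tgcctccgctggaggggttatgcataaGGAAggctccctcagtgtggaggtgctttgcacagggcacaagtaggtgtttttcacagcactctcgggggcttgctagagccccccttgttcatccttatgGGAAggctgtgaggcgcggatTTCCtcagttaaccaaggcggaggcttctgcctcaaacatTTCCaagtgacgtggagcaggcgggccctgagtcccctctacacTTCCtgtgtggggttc
Cd3g: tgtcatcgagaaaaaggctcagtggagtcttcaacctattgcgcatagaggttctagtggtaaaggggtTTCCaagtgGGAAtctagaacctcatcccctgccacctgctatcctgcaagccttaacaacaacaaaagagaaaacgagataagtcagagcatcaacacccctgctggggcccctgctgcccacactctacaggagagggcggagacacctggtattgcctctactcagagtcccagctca
GGAA occurred 6 times in the Cd3d window, 5 times in that of Cd3e and 2 times in that of Cd3g, and 93.4% of 32851 promoter windows of this length hold it. The GATA core (GATA, either strand) occurred 1, 0 and 2 times in Cd3d, Cd3e and Cd3g (53.6% of windows), and the E-box CANNTG 1, 1 and 3 times (66.2%). In Cd3e and in Cd3g, 1 E-box shares a base with an ETS core. The RUNX core TGTGGT was in none of the 3 windows (14.0% of all). These are letter matches, and no factor's binding was measured.

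Per unit of length, the adaptors and kinases had higher mean levels than 3 of the 4 receptor chains. The mean TPM (transcript abundance scaled for length and to a fixed library sum) over the 12 libraries was 229 for Lat, 132 for Lcp2, 108 for Lck and 87.0 for Zap70. It was 63.7 for Cd3g, 19.9 for Fyn, 8.96 for Cd247, 2.78 for Cd3d and 0.859 for Cd3e. Neighbouring genes from Lat to Cd3g in this order overlapped in their ranges over libraries, as did Fyn with Cd247 and Cd3d with Cd3e. Cd3g lay above Fyn, and Cd247 above Cd3d, in every library. The CD3 chains, which join one another in the receptor complex, were thus unequal as transcripts: Cd3g ranged from 37.7 to 101 TPM, Cd3d from 1.13 to 5.0 and Cd3e from 0 to 3.33.

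The design asks how ILC2s with and without Rag1 differ. In the genotype difference averaged over both times, 7 of the 9 genes had a log2 fold change below 0 (knockout-labelled against WT-labelled), and their median was -0.38, against 0.01 over all genes tested. Cd3e, Lck, Cd3g and Cd247 were lower at an unadjusted p under 0.05. That is 4 of 9, where 1.77% of all genes were lower by this measure. None passed the test: edgeR's quasi-likelihood test with Benjamini-Hochberg adjustment over all genes called 0 of the 9 in the average (0.222% of all genes called). It also called 0 at 8 weeks (0.201%), 0 at 20 weeks (0.0554%), 0 for the interaction (0.097%) and 0 for time (2.9%). At an unadjusted p under 0.05, 2 genes (Lck and Cd3g) were lower at 8 weeks (1.73% of all genes), 1 (Cd3e) at 20 weeks (1.09%), and none differed in the interaction (2.18%). limma-voom called 0 in the average (0.215%), at 8 weeks (0.187%), at 20 weeks (0.0485%), for the interaction (0.0762%) and for time (3.53%). DESeq2 called 1 in the average, Cd3e (0.527%), and 0 at 8 weeks (0.52%), at 20 weeks (0.222%), for the interaction (0.243%) and for time (8.5%).

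**Figure D1:**
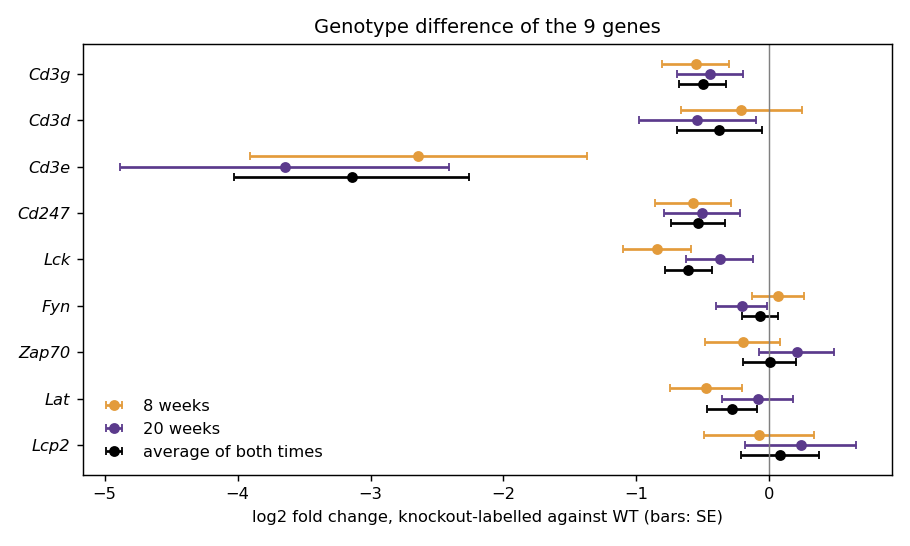
Log2 fold change, knockout-labelled against WT-labelled, for the 9 genes at 8 weeks, at 20 weeks and averaged. Points are edgeR estimates and bars 1 SE; Cd3e sits at -3.14 in the average with the widest bars, and Zap70, Fyn and Lcp2 lie near 0.

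Cd3e encodes the epsilon chain, which pairs with both gamma and delta. In CPM (counts per fixed library total, after TMM scaling), it was at 1.01, 0 and 1.93 in the WT-labelled libraries of 8 weeks and 0.293, 0 and 0.148 in the knockout-labelled ones. At 20 weeks it was at 2.93, 0.733 and 3.76 against 0.119, 0.0683 and 0.409. The groups therefore overlapped at 8 weeks, and at 20 weeks every knockout-labelled library lay below every WT-labelled one. The counts were small: 0 to 90.8 estimated reads in a WT-labelled library and 0 to 9.6 in a knockout-labelled one. A count of 0 allows up to 0.296 CPM in WT-labelled replicate 2 and up to 0.145 CPM in knockout-labelled replicate 2 of 8 weeks (3 counts; this covers counting error only, as PCR copies are not separate molecules).

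Mean Cd3e at 8 weeks was 0.981 ± 0.965 CPM with the WT label and 0.147 ± 0.147 CPM with the knockout label (SD, n = 3 each). At 20 weeks it was 2.48 ± 1.57 and 0.199 ± 0.184 CPM. The averaged log2 fold change was -3.14 (SE 0.88; edgeR adjusted p = 0.594). DESeq2 gave -3.18 with an adjusted p of 0.0488. By time it was -2.64 (SE 1.27) at 8 weeks and -3.65 (SE 1.24) at 20 weeks, each with an edgeR adjusted p of 1. The interaction was -1.01 (SE 1.74), so no difference between the times could be told at this precision. Without WT-labelled replicate 3 of 8 weeks the value at that time was -1.79.

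Cd3g encodes the gamma chain and was the most abundant receptor chain transcript. It was at 66.1, 37.3 and 54.8 CPM in WT-labelled libraries of 8 weeks and 38.9, 44.4 and 24.5 CPM in knockout-labelled ones. At 20 weeks it was at 43.1, 44.8 and 47.2 against 29.0, 35.1 and 35.1 CPM. The groups overlapped at 8 weeks and were apart at 20 weeks, knockout-labelled lower. The averaged log2 fold change was -0.50 (SE 0.18; edgeR adjusted p = 1).

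Cd3d encodes the delta chain and was less abundant than Cd3g. It was at 1.25, 2.32 and 3.76 CPM in WT-labelled libraries of 8 weeks and 1.29, 2.24 and 2.88 CPM in knockout-labelled ones. At 20 weeks it was at 4.78, 2.81 and 4.38 against 2.28, 3.08 and 2.88 CPM. The groups overlapped at both times, and the averaged log2 fold change was -0.37 (SE 0.32; interval of 2 SE from -1.01 to 0.26). Its value at 8 weeks, -0.21, turned to 0.23 without WT-labelled replicate 3 and to 0.05 without knockout-labelled replicate 1 of that time. At 20 weeks its value was -0.54 (SE 0.443), and that of Cd3g was -0.445 (SE 0.249). These estimates do not set Cd3d apart from Cd3g.

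Cd247 encodes the zeta chain, on chromosome 1. It was at 19.0, 12.0 and 15.5 CPM in WT-labelled libraries of 8 weeks and 14.7, 8.54 and 8.04 CPM in knockout-labelled ones. The 20-week values were 13.5, 9.74 and 9.8 against 7.74, 8.79 and 6.83 CPM. As with Cd3g, the groups overlapped at 8 weeks and not at 20 weeks. The averaged log2 fold change was -0.54 (SE 0.20; edgeR adjusted p = 1). Between times it differed by -0.46 (SE 0.20; edgeR adjusted p = 0.247), the single member under an unadjusted p of 0.05 for time, where 10.5% of all genes were lower by this measure.

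**Figure D2:**
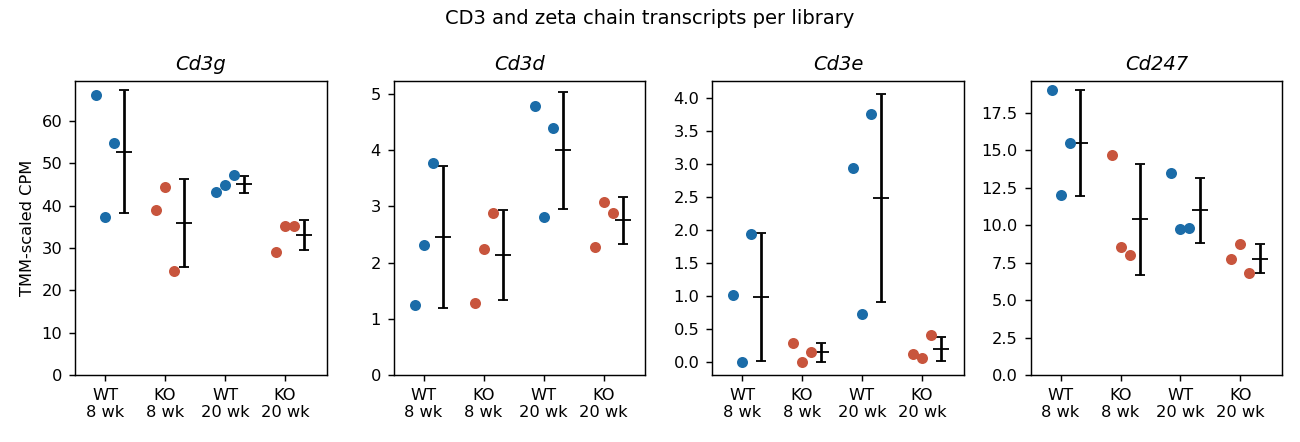
TMM-scaled CPM of the 4 receptor chain genes in each library (points, blue WT-labelled, red knockout-labelled) with group mean and SD (black; n = 3), each panel on its own linear axis. At 20 weeks the red points of Cd3e, Cd3g and Cd247 lie below all blue points of that time, while those of Cd3d overlap.

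Lck, the kinase that opens the cascade and is bound by CD4 and CD8, was the gene of the 9 that separated the labels at both times. It was at 177, 310 and 140 CPM in WT-labelled libraries of 8 weeks and 103, 131 and 116 CPM in knockout-labelled ones. By 20 weeks its levels were 152, 136 and 148 against 116, 97.4 and 124 CPM. All 6 WT-labelled libraries lay above all 6 knockout-labelled ones. WT-labelled replicate 2 of 8 weeks, which stood apart over all genes, was the highest.

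The averaged log2 fold change of Lck was -0.61 (SE 0.18; edgeR adjusted p = 0.724), from -0.84 (SE 0.26) at 8 weeks and -0.37 (SE 0.25) at 20 weeks, with an interaction of 0.47 (SE 0.36). Without WT-labelled replicate 2 of 8 weeks the value at 8 weeks was -0.45 and the interaction 0.08; without replicate 3 of that group the interaction was 0.71. Of all genes tested, 0.374% were lower in knockout-labelled libraries without overlap at both times. At 8 weeks 1 of the 9 (Lck) was lower without overlap, against 2.65% of all genes. At 20 weeks 4 of the 9 were (Cd3e, Cd3g, Cd247 and Lck), against 6.1%. One gene of the 9, Lcp2, was higher without overlap at 20 weeks (5.36% of all genes) and 0 at 8 weeks (2.97%).

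Fyn, the other Src family kinase, averaged 35.1 ± 5.22 CPM (WT-labelled) and 36.8 ± 6.5 CPM (knockout-labelled) at 8 weeks (SD, n = 3 each). At 20 weeks the means were 44.3 ± 3.17 and 38.3 ± 5.59 CPM. The log2 fold change over both times was -0.07 (SE 0.14), with an interval of 2 SE from -0.35 to 0.21. Zap70 averaged 137 ± 18.0 CPM (WT-labelled) and 119 ± 45.2 CPM (knockout-labelled) at 8 weeks, and 133 ± 37.7 and 154 ± 13.5 CPM at 20 weeks. Its averaged value was 0.00 (SE 0.20), with an interval from -0.40 to 0.41, and 0.33 with the T cell sum below as a covariate.

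Of the scaffolds that Zap70 phosphorylates, Lat averaged 259 ± 37.6 CPM (WT-labelled) and 186 ± 73.0 CPM (knockout-labelled) at 8 weeks, and 226 ± 19.8 and 212 ± 27.2 CPM at 20 weeks (log2 fold change over both -0.28, SE 0.19; 0.04 with the T cell sum below as a covariate). The lowest value of Lat, 102 CPM, was in knockout-labelled replicate 3 of 8 weeks, which also had the lowest Zap70 (69.0 CPM) and Lcp2 (69.2 CPM). Lcp2 was at 166, 293 and 110 against 216, 254 and 69.2 CPM at 8 weeks, where the groups overlapped widely. The levels at 20 weeks were 145, 127 and 114 against 154, 153 and 147 CPM, every knockout-labelled library higher by a small margin. Its averaged log2 fold change was 0.08 (SE 0.29; edgeR adjusted p = 1). It was 0.51 (SE 0.13, edgeR adjusted p = 0.243) without both libraries that stood apart, and 0.57 (SE 0.22, edgeR adjusted p = 0.543) with the T cell sum below as a covariate.

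**Figure D3:**
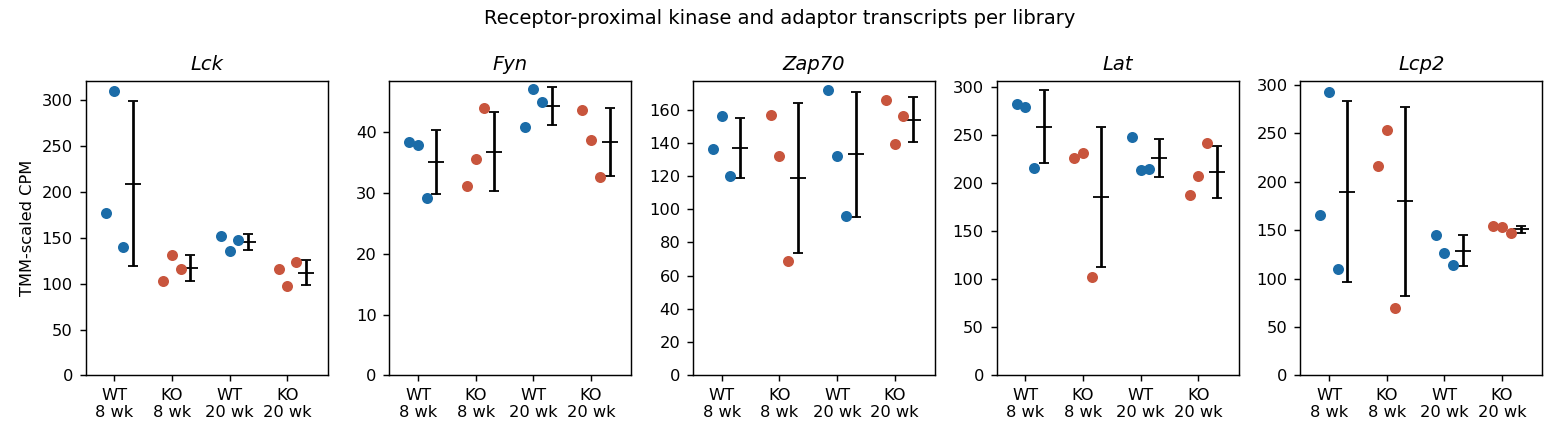
TMM-scaled CPM of the kinase and adaptor genes in each library (points, blue WT-labelled, red knockout-labelled) with group mean and SD (black; n = 3), linear axes from 0. Lck is at 136 to 310 CPM in WT-labelled and 97.4 to 131 CPM in knockout-labelled libraries; the other 4 genes overlap at 8 weeks.

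Per transcript, Cd3d and Cd3e were each represented by 1 protein-coding transcript. For Cd3e-201 the averaged log2 fold change was -3.11 (SE 1.07; edgeR adjusted p = 1). Cd3g was read as the 1023-base transcript Cd3g-201 (-0.47, SE 0.23), the 412-base protein-coding transcript Cd3g-203 (-0.31, SE 0.85) and a 294-base retained intron that had 13.2 reads in 1 library. At 8 weeks Cd3g-203 was at 11.9, 12.1 and 8.59 CPM with the WT label and 3.12, 8.49 and 5.1 CPM with the knockout label. The values at 20 weeks were 0, 1.91 and 7.45 against 2.74, 3.42 and 5.66 CPM. Cd3g-203 took 0% to 33.5% of the gene's reads. Its mean share was 22.3% ± 9.78 against 16.0% ± 7.27 at 8 weeks and 6.86% ± 8.47 against 11.7% ± 3.81 at 20 weeks (SD, n = 3 each). None of these transcripts was called, where 0.0596% of 35236 tested transcripts were.

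Cd3e was also set against its neighbours within each library. For each 100 reads of Cd3g, WT-labelled libraries had 1.54, 0 and 3.52 reads of Cd3e at 8 weeks and 6.81, 1.64 and 7.97 at 20 weeks. Knockout-labelled libraries had 0.754, 0 and 0.607 at 8 weeks and 0.412, 0.194 and 1.16 at 20 weeks. The groups overlapped at 8 weeks and not at 20 weeks. The log2 ratio of Cd3e to Cd3g differed by -2.32 between labels (exact permutation test within time, two-sided, p = 0.06, adjusted p = 0.12 over 4 ratios, where the smallest possible p is 0.005). Without WT-labelled replicate 2 of 8 weeks it was -3.01 (exact adjusted p = 0.02). Over the 12 tests that each left out 1 library, the exact adjusted p was 0.02 to 0.3.

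T cells were looked for by a list of 12 T cell-defining genes. Its summed level was 829 to 948 CPM in WT-labelled and 557 to 913 CPM in knockout-labelled libraries of 8 weeks, and 840 to 977 against 681 to 839 CPM at 20 weeks, where the groups did not overlap. The beta constant genes Trbc1 and Trbc2, which ILC2s are known to transcribe, made up 84.0% to 90.6% of each sum. The other 10 genes were not alike in level. Ubash3a, a regulator of receptor signalling, was at 62.1 to 94.0 CPM, Trat1 at 4.97 to 13.2, Themis at 1.72 to 6.65 and Cd28, a costimulatory receptor gene, at 0.835 to 14.5. The remaining 6 lay in about the range of Cd3e: Trac, the alpha constant gene, was at 0.405 to 4.03 CPM, Cd4 at 0.0995 to 1.59, Cd8a at 0.324 to 0.981 and Cd6 at 0 to 1.66. Cd5 was at 0 in 7 of 12 libraries. Cd8b1 was at 0 in 3, at most 0.276 in 8, and at 3.43 CPM in WT-labelled replicate 3 of 8 weeks, which also had the highest Cd3e of that time.

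Of the 11 tested genes of this list, 0 were called in any contrast and 2, Trat1 (-0.53) and Themis (-0.67), were at an unadjusted p under 0.05 in the average (3.71% of all genes were, and 0.222% were called). The list's median averaged log2 fold change was -0.17, with 8 of 11 below 0. The co-receptor genes Cd4, Cd8a and Cd8b1 summed to 0.604 to 4.69 CPM (WT-labelled) and 0.608 to 1.34 CPM (knockout-labelled) at 8 weeks. At 20 weeks they summed to 1.59 to 2.66 and 1.32 to 2.17 CPM, so the labels overlapped at both times. Summed V segments of the alpha chain (0.572 to 3.06 CPM) and of the beta chain (0.079 to 1.5 CPM) also overlapped at both times. At 20 weeks, when Cd3e was apart, the sum of Trac, Cd4, Cd8a, Cd8b1, Cd5 and Cd6 was 3.2 to 3.96 CPM in WT-labelled and 3.93 to 4.35 CPM in knockout-labelled libraries. At 8 weeks this sum was 5.23 to 8.13 against 1.74 to 4.76 CPM. Of single genes at 20 weeks, Cd6 was higher with the knockout label without overlap (0 to 0.239 against 0.28 to 0.999 CPM, as were 5.36% of all genes). Trat1 was lower without overlap (7.43 to 11.5 against 6.31 to 7.12 CPM, as were 6.1% of all genes).

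**Figure D4:**
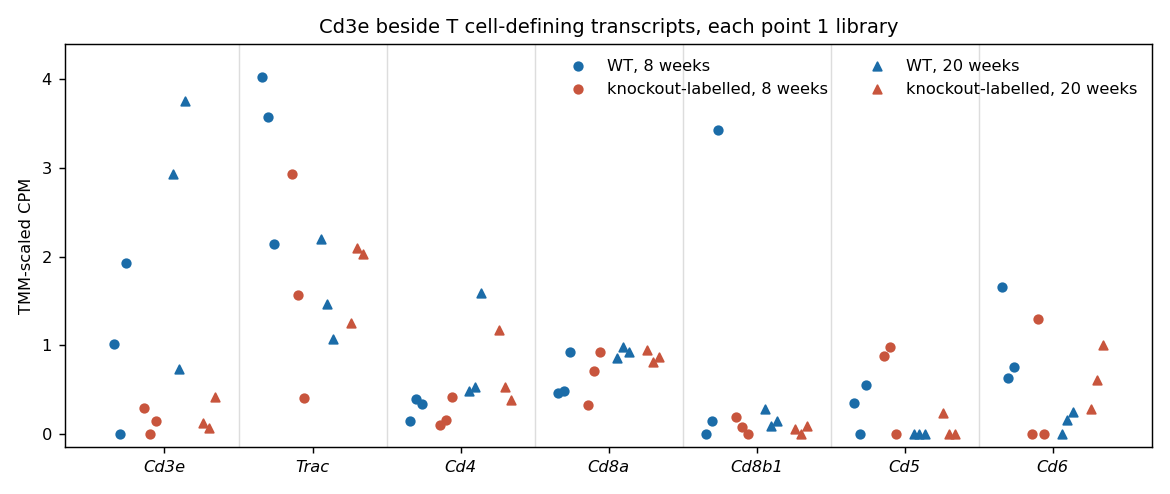
TMM-scaled CPM (linear axis) of Cd3e and 6 T cell-defining genes, 1 point per library, blue WT-labelled, red knockout-labelled, circles 8 weeks, triangles 20 weeks. Blue triangles of Cd3e lie above its red ones, those of Trac, Cd4 and Cd8a overlap, and those of Cd6 lie below. The Cd8b1 point at 3.43 CPM is WT-labelled replicate 3 of 8 weeks.

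The log2 ratio of Cd3e to the whole T cell-defining sum differed by -2.58 between labels (exact permutation p = 0.055, adjusted p = 0.12). That of Cd3g differed by -0.27 (exact permutation p = 0.12, adjusted p = 0.16) and that of Cd3d by -0.09 (exact permutation p = 0.8, adjusted p = 0.8). Without WT-labelled replicate 2 of 8 weeks, which had 0 reads of Cd3e, the ratios of Cd3e (-3.41) and Cd3g (-0.40) each had an exact adjusted p of 0.02. Over the 12 tests that each left out 1 library, this p was 0.02 to 0.3 for Cd3e and 0.02 to 0.36 for Cd3g. All 16 alternatives together put the Cd3g ratio at -0.402 to -0.102 (exact adjusted p 0.02 to 0.867). They put that of Cd3e at -3.413 to -1.9 (exact adjusted p 0.02 to 0.3). Most of the T cell-defining sum came from Trbc1 and Trbc2, which ILC2s are known to transcribe. Ratios to it, and fits with it as a covariate, therefore cannot adjust for T cell content. With the T cell-defining sum as a covariate, the averaged log2 fold change of Cd3e was -3.06 (SE 1.04) and that of Lck -0.51 (SE 0.21). With the sum of Trac, Cd4, Cd8a, Cd8b1, Cd5 and Cd6 in its place, Cd3e was at -1.08 (SE 2.15) at 8 weeks and at -3.86 (SE 1.24) at 20 weeks. In the same fit Cd3g was at -0.01 (SE 0.257) at 8 weeks and -0.55 (SE 0.186) at 20 weeks. At 8 weeks this sum was itself lower with the knockout label without overlap. The fit therefore separates the sum from the label poorly at that time. In bulk RNA, fewer cells of a type and less RNA per cell cannot be told apart.

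On the chromosome, the 3 CD3 genes lay among genes of mixed direction. Within 1 Mb on each side, 48 other genes were tested and 2 were called in the average (4.17%), both higher in knockout-labelled libraries. They were Thy1 (2.94 to 5.68 against 16.8 to 37.8 CPM; 2.63, SE 0.25, edgeR adjusted p = 0.000463) and Tmprss13, a serine protease gene 309.5 kb from the cluster (0 to 0.548 against 6.61 to 62.2 CPM; edgeR adjusted p = 0.00213, limma-voom adjusted p = 0.197). At an unadjusted p under 0.05 there were 12 of the 48 (25.0%; 3.71% of all genes), 7 lower and 5 higher, and the median log2 fold change was 0.04. The nearest tested genes were Ube4a, 4.0 kb beyond Cd3g (-0.36, SE 0.14, edgeR adjusted p = 1, and 0.02 with length-scaled TPM), and Mpzl2, 30.2 kb beyond Cd3e (-0.79, SE 0.51).

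Linkage to the donor marker was not tested apart from the labels, since the WT donor marrow was CD90.1, and the allele and the label cannot be told apart.

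**Figure D5:**
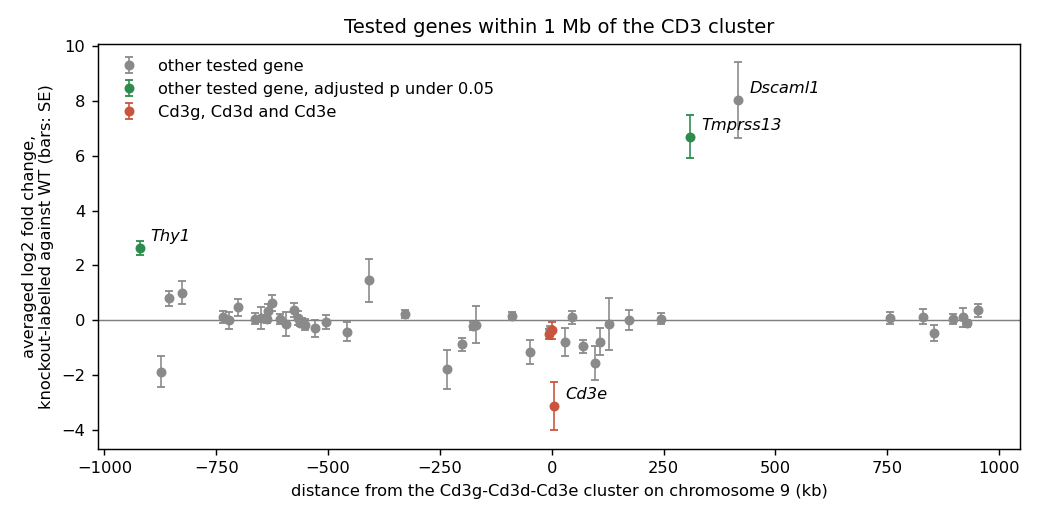
Averaged log2 fold change (knockout-labelled against WT-labelled; bars 1 SE) of the 51 tested genes within 1 Mb of the CD3 cluster, against their distance in kb (3 CD3 genes at about 0). Thy1 (2.63) and Tmprss13 (6.70) are the 2 genes past the threshold, and Cd3e (-3.14) is the lowest point.

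Of 43 further genes of the proximal antigen receptor pathway, all tested, 1 fell in the average and 0 rose (0.222% of all genes were called). The gene that fell was Ubash3b, a phosphatase that dampens receptor signalling, also on chromosome 9 (-1.84, SE 0.25, edgeR adjusted p = 0.00568). It was at 70.8 to 147 CPM in WT-labelled and 19.5 to 47.2 CPM in knockout-labelled libraries. For 8 weeks the 43 genes summed to 4890 to 5280 CPM with the WT label and 4180 to 4820 CPM with the knockout label. The sums for 20 weeks were 5220 to 5500 CPM (WT-labelled) and 5020 to 5180 CPM (knockout-labelled). The labels did not overlap at either time, but these sums include Ubash3b and were not taken without it. They therefore do not show a fall across the list. Cd2, an adhesion receptor, had -0.85 (SE 0.17, edgeR adjusted p = 0.101, DESeq2 adjusted p = 0.00121), and the adaptor gene Sit1 -1.12 (SE 0.32, edgeR adjusted p = 0.6). The list's median was -0.06. With time the adaptor gene Dok1 rose (0.53, SE 0.13, edgeR adjusted p = 0.0451) and the adaptor gene Grap2 fell (-0.77, SE 0.16, edgeR adjusted p = 0.0279). Both of these calls for time were lost with the thread number as covariate and when any 1 library of 20 weeks was left out. Time and a batch tied to it cannot be told apart.

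Among 5 other adaptors with receptor tyrosine motifs, 0 were called between labels. Fcer1g, which shares the role of the zeta chain in innate cells, averaged 16.3 ± 7.09 CPM (WT-labelled) and 30.4 ± 7.39 CPM (knockout-labelled) at 8 weeks, and 16.3 ± 2.7 and 24.7 ± 5.57 CPM at 20 weeks (log2 fold change over both 0.75, SE 0.23, edgeR adjusted p = 0.818). Of 4 tested gamma-delta T cell genes, 0 were called between labels and all 4 had values below 0. In the average 3 were at an unadjusted p under 0.05 (3.71% of all genes): Tcrg-C1 (-0.67), Tcrg-C2 (-1.18) and Cd163l1 (-1.56). At 8 weeks their summed level was 498 to 730 against 319 to 367 CPM, and at 20 weeks 287 to 342 against 283 to 336 CPM, so this list was lower beside Lck at the earlier time. Its part in the result was not tested.

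Over the 12 libraries, the genes whose log2 CPM was most like that of Cd3e were Cntd1 (Pearson r 0.937), Zfp973 (0.915), Sptssa (0.907), H1f0 (0.892) and Zfp965 (0.886). For Cd3g they were Gm6807 (0.919), Tmem176a (0.877), Tent5c (0.863), Ildr1 (0.858) and Ms4a4b (0.858), and for Cd3d Gm4297 (0.931), Cx3cr1 (0.921), Golga3 (0.911) and AA386476 (0.90). No CD3 gene was on another's list, and these correlations share libraries, depth and groups.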

How the data were processed

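RNA-seq was made from sorted ILC2s in 12 libraries, 3 in each of 4 groups. Per the file headers, the authors ran sailfish 0.6.3 with 20-base k-mers on Ensembl release 76 transcripts and deposited expected counts (estimated reads) and TPM per transcript. The submitters' processing notes also list STAR 2.0.4b and featureCounts 1.4.5. Per the labels the molecule is polyA RNA, while the protocol removes ribosomal RNA; strand is not given in the sources used here. The series text gives 12 weeks for the later time, and the sample labels' 20 weeks was taken.

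Of 86127 transcripts, 83739 found a gene in the GENCODE M21 annotation of GRCm38, giving sums for 29542 genes; the others held 1.01% to 1.54% of reads. Counts were rounded, filtered with filterByExpr, scaled by TMM and fitted with edgeR 4.0.16 (quasi-likelihood, 4 group means, 5 contrasts, Benjamini-Hochberg over 14431 genes, called under 0.05). Transcripts were fitted likewise. The common biological coefficient of variation was 0.377. Ratios used a pseudocount of 0.5 reads. DESeq2 1.42.0, limma 3.58.1 (voom), other scalings and filters, covariates and left-out libraries were alternatives; the covariate of 6 T cell genes, its use as a denominator and the 4 libraries of 8 weeks with 8 threads were added after the data were seen. Estimates rest on reference k-mers, and donor variants, which can lower them, were not examined. The scripts were tested on simulated data.

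Members and lists were chosen with earlier results of these data known. Named genes were the 9 members, the T cell-defining genes, genes of the other lists past the threshold in any contrast or else with the smallest p in the average, the called and nearest tested genes within 1 Mb, and the 5 genes most correlated with each CD3 gene. Some genes that this rule names are not reported here. Lists of B cell, NK cell, myeloid, basophil and mast cell, stromal and ILC2 genes were also read. Protein sequences were not used here.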

Additional observations from a re-analysis of the deposited data

How the results depend on the processing

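No call among the 9 genes was lost, since edgeR made none, and DESeq2 made 1 (Cd3e, adjusted p = 0.0488). Small counts limit Cd3e and Cd3d, and 3 libraries a group limit all. Cd3e had no value when 8 weeks was fitted alone, since it did not pass the filter. The averaged Cd3e value lay between -3.72 and -2.47 over its 22 alternatives (adjusted p 0.0488 to 1) and that of Lck between -0.72 and -0.40 (adjusted p 0.209 to 1).

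Signs turned for values near 0, and the cause was not tested. Averaged, Zap70 was -0.007 with DESeq2 size factors and with DESeq2, -0.009 with voom and -0.016 with the replicate block; Lat was 0.042 with the T cell sum as covariate; Fyn was 0.007 and Ube4a 0.023 with length-scaled TPM. Cd3d at 8 weeks was 0.178 on the 4 libraries of 8 threads, and its ratio to T cell genes 0.078 with the 6-gene denominator.

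Leaving out 1 library gave -0.124 to 0.15 for Zap70, -0.089 to 0.311 for Lcp2, -0.546 to 0.227 for Cd3d at 8 weeks, -2.099 to 0.134 for the Cd3e interaction (positive when the first knockout-labelled library of 8 weeks was left out) and -0.602 to 0.542 for Cd3g-203 (positive when the third WT-labelled library of 20 weeks was). With 1 library left out, ratios ranged from -0.334 to 0.133 (Cd3d to T cell genes), -3.413 to -1.97 (Cd3e to T cell genes), -0.402 to -0.188 (Cd3g to T cell genes) and -3.011 to -1.674 (Cd3e to Cd3g). Over all genes, calls ranged from 23 to 36 in the average, 15 to 36 at 8 weeks, 3 to 15 at 20 weeks, 10 to 16 for the interaction, 77 to 927 for time and 8 to 25 for transcripts.

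DESeq2 called 76 genes in the average, 75 at 8 weeks, 32 at 20 weeks, 35 for the interaction and 1227 for time, against 32, 29, 8, 14 and 419 by edgeR. With threads as covariate 20 weeks had 3 calls and time 75. With the T cell sum time had 777, and with the 6-gene sum 8 weeks had 18, 20 weeks 14 and time 1397. Without both libraries that stood apart, 20 weeks had 20, the interaction 27 and time 983. Each time alone gave 8 at 8 weeks and 17 at 20 weeks, and the 4 libraries of 8 threads 0 by edgeR (241 at an unadjusted p under 0.05).

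The replicate numbers were not taken as pairing: same-numbered libraries correlated at 0.107 to 0.226 at 8 weeks and 0.0707 to 0.117 at 20 weeks, not every pair over 0.1, although each library correlated best with its own number. Cells of both labels can come from the same recipient of a mixed chimera. The labels do not say whether same-numbered libraries did. With the replicate block edgeR called 19 genes in the average, 15 at 8 weeks, 4 at 20 weeks, 9 for the interaction and 0 transcripts (1100 at an unadjusted p under 0.05); Cd3g-203 was 0.294, and Ubash3b lost its call (adjusted p = 0.114). The calls for time were lost in 12 of 21 alternatives for Dok1 and Il13, 10 for Grap2, 9 for Cd79b, 8 for Tcrg-C1, 3 for Areg and 0 for Cd163l1; Thy1 kept its call in all 22 of its own.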

Other observations

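Genes of other cell types were read beside the CD3 genes. None of the B cell, NK cell, myeloid, basophil and mast cell, stromal or ILC2 lists had a gene called between labels by edgeR in the average (0 each; unadjusted p under 0.05 in 0, 0, 1, 1, 0 and 0 genes). Summed B cell genes were 115 to 140 CPM in WT-labelled and 100 to 109 CPM in knockout-labelled libraries of 20 weeks, without overlap, and 124 to 215 against 130 to 408 CPM at 8 weeks, with overlap. Within this list at 20 weeks, Igkc, the kappa constant gene, was at 32.6 to 51.9 against 2.68 to 6.42 CPM, and Cd79b went the other way (67.1 to 83.1 against 94.4 to 103 CPM). At 8 weeks Igkc overlapped (7.12 to 13.9 against 2.18 to 170 CPM), and its mean was higher with the knockout label (9.9 against 76.6 CPM). Summed NK cell genes lay at 35.1 to 231 CPM and myeloid genes at 6.82 to 27.3 CPM over the 12 libraries, overlapping between labels at both times. Klra7 and S100a9 were at 0 in every library.

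The ILC2 list summed to 5450 to 7260 CPM in WT-labelled and 6040 to 7540 CPM in knockout-labelled libraries of 8 weeks. At 20 weeks, when Cd3e, Cd3g, Cd247 and Lck were lower without overlap, it was also lower in knockout-labelled libraries (6960 to 7390 against 7650 to 8350 CPM); its part in those results was not tested. With time, Il13, a type 2 cytokine gene, fell by 0.98 on the log2 scale (SE 0.23, edgeR adjusted p = 0.0439) and Areg, an epidermal growth factor receptor ligand gene, by 1.57 (SE 0.28, edgeR adjusted p = 0.0163). Cd79b, an adaptor of the B cell receptor, also fell (-0.77, SE 0.15, edgeR adjusted p = 0.024), as did Tcrg-C1 (-1.15, SE 0.22, edgeR adjusted p = 0.0222), a gamma chain constant gene, and Cd163l1 (-2.30, SE 0.36, edgeR adjusted p = 0.0093). With the thread number as a covariate the calls of Il13 (adjusted p = 0.112), Areg (0.0528), Cd79b (0.0737) and Tcrg-C1 (0.0716) were lost by edgeR, and Il13 lost its call in 12 of 21 alternatives.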
